A study of Mus musculus with 18 samples.

Results

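The genes described here are mostly those that encode complexes I to V of oxidative phosphorylation and the assembly factors of the same symbol families. They were chosen by platform symbol: every symbol beginning with Nduf, Uqcr, Atp5 or Cox4 to Cox8, and the symbols Sdha, Sdhb, Sdhc and Sdhd. The rule took in 135 of the 45281 probes on the array, and these probes stood for 87 genes. Of the 87 genes, 81 had a probe above background on at least 3 arrays and were tested among 10958 genes in all. Complex I held 41 of the 81 genes, complex II 4, complex III 7, complex IV 13 and complex V 16. The symbol rule also took in Ndufs5-ps, annotated as a pseudogene of Ndufs5 and counted with complex I, and Cox7a2l, a factor that joins complexes III and IV in supercomplexes and was counted with complex IV. Ndufa4, first assigned to complex I, was counted with complex IV. Signal from Ndufs5 and its near-identical copy cannot be told apart here.

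Transcript levels were measured on 18 Illumina mouse BeadChip arrays, 3 for each of 6 groups of 3T3-L1 adipocytes. 3T3-L1 is a mouse preadipocyte line, and the cells were differentiated for 7 days before a treatment of 24 hours. The groups received rosiglitazone at 100 nM, sodium diclofenac at 25 µM, indomethacin at 10 µM, ibuprofen at 75 µM, GQ16 at 10 µM or the vehicle DMSO. Rosiglitazone is a full agonist of PPARγ, a nuclear receptor needed to form fat cells, and the series title asks how the non-steroidal anti-inflammatory drugs and GQ16 activate that receptor. The doses differed between compounds, so differences between compounds are differences between these treatments. The labels do not say whether the 3 samples of a group were separate cultures, and the p-values thus measure how far these samples varied, a variation that may be technical only.

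The respiratory chain passes electrons from NADH (complex I) and succinate (complex II) through ubiquinone, complex III and cytochrome c to complex IV, which reduces oxygen. Complexes I, III and IV pump protons across the inner mitochondrial membrane, and complex V, the ATP synthase, uses the returning protons to make ATP. Several complex IV subunits exist as a common form and a form typical of heart, muscle or brown fat. PPARγ agonists are known for raising mitochondrial gene expression in fat cells, and Ppargc1a, Esrra and the factors NRF1, GABP (an ETS factor) and YY1 are known regulators of these genes.

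RefSeq promoter windows, from 250 bases before to 50 bases after the transcription start, were at hand for 70 of the 81 tested genes (75 windows, build GRCm38.p6). Windows are shown for 3 genes of complex I that rose with rosiglitazone and for Cox8b, which fell with indomethacin and ibuprofen. Each is written 5′ to 3′ on the gene's strand, and capitals mark any of the searched motifs GCGCANGCG (NRF1), CCGGAAG (ETS), AAGATGGCG (YY1), TCAAGGTCA (estrogen-related receptor) or a direct repeat of AGGTCA with 1 base between the copies.
Ndufb7, GRCm38.p6 chr8:83566508-83566807, plus strand: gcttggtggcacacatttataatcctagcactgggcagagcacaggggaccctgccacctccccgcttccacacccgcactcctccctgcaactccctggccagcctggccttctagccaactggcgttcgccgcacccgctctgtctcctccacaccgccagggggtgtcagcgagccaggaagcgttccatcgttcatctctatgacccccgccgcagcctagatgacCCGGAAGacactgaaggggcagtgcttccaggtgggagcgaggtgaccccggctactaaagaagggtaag
Ndufa8, GRCm38.p6 chr2:36049289-36049588, minus strand: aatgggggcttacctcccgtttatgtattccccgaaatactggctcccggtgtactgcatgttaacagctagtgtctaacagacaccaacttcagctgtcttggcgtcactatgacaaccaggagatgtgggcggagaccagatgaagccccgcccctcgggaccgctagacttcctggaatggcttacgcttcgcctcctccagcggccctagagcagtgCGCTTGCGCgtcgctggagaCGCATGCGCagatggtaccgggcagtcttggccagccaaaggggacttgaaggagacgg
Ndufaf4, GRCm38.p6 chr4:24897833-24898132, plus strand: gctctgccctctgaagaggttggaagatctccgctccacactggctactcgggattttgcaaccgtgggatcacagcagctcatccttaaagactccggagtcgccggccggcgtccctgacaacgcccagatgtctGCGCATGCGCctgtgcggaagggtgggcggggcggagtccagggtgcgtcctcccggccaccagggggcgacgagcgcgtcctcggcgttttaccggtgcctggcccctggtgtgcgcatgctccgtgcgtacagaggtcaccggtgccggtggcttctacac
Cox8b, GRCm38.p6 chr7:140900397-140900696, minus strand: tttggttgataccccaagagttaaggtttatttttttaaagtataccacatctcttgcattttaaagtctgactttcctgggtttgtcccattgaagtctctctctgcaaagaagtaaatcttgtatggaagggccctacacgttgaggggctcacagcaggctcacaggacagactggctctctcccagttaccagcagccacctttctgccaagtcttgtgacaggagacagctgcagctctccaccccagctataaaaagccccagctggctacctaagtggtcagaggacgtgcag

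Ndufb7 carried 1 ETS match, and the windows of Ndufa8 and Ndufaf4 each carried overlapping or neighbouring NRF1 matches, while none of the searched letters stood in the Cox8b window. Searched on both strands, the NRF1 letters were in 29.3% of the 75 windows, against 6.25% of all 32851 promoter windows of the same length. The ETS letters were in 24.0%, against 8.86% of all windows, and the YY1 letters in 10.7%, against 1.40%. The estrogen-related receptor letters were in 2 of the 75 windows, those of Sdhd and Atp5g3 (2.67%, against 0.42% of all windows). The direct repeat was in 0 of the 75 and in 13 of the 32851 windows. Of the other genes that rose with rosiglitazone, Ndufb3, Ndufv1, Ndufa10, Sdhc, Uqcrc2 and Cox6a2 were not among the genes with a match. Not every tested gene had a window, and the windows shown do not compare risen with fallen genes. These matches describe letters and not binding.

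All values below are log2 intensities of the probe with the highest mean for each gene, and a log2 change is the difference of 2 group means with its standard error (SE). A gene is said to have risen or fallen when its limma test gave a Benjamini-Hochberg adjusted p under 0.05 over all 10958 genes. For single genes the text also says whether the arrays of 2 groups overlapped. The share of all genes without overlap was not counted, so such statements describe the arrays and add no support to the test. Values differ in scale from probe to probe, so levels are compared between groups and not between genes. The members were bright: 41 of the 81 had a mean over 13, as did 3.19% of all genes tested, and the highest value on any array was 14.77. Arrays spread least where signals were brightest, with a median residual SD of 0.127 for members over 13, of 0.182 for members between 10 and 13 and of 0.214 for members under 10. Adipocyte markers were above background in 10 of 10 cases, as were 1 of 3 macrophage markers on the array (Csf1r, not Adgre1 or Itgam), 1 of 3 endothelial markers (Kdr, not Pecam1 or Cdh5) and 3 of 5 muscle markers (Myog, Des and Acta1, not Myod1 or Ckm). Ucp1, the uncoupling protein of brown fat, did not pass the background filter.

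**Figure D1:**
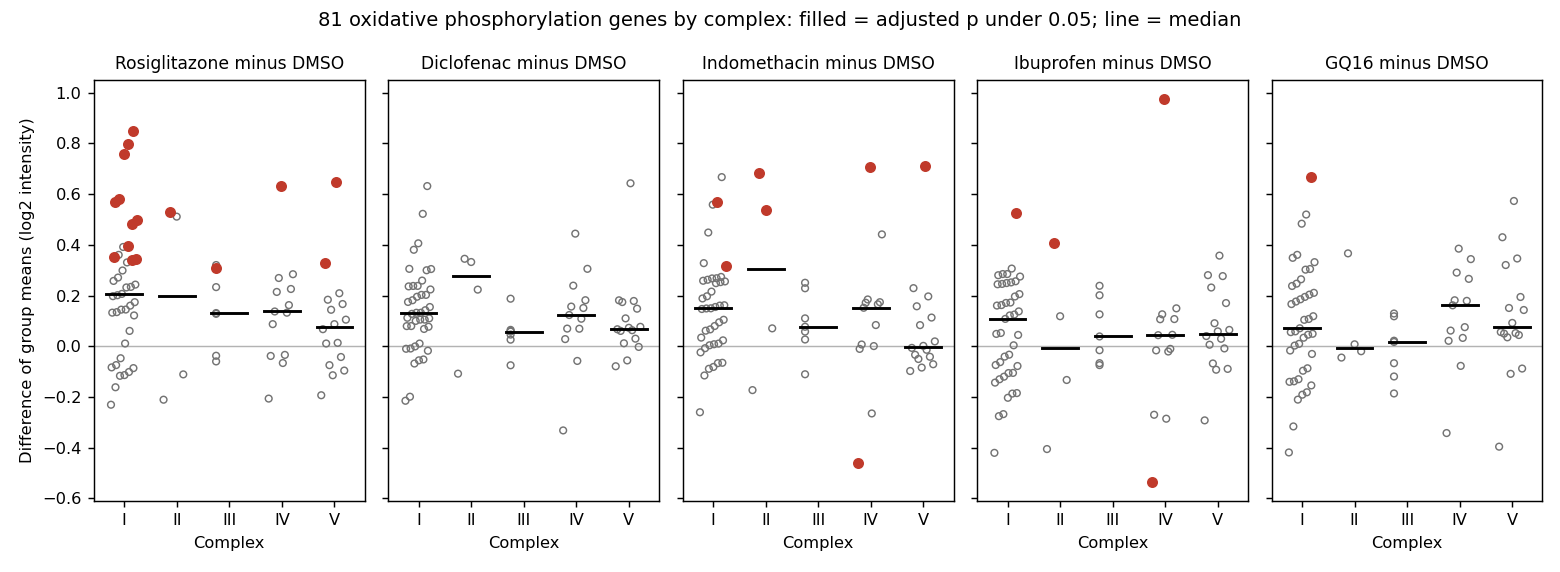
Difference between each compound's mean and the DMSO mean (vertical axis, log2 intensity) for the 81 genes, grouped by complex on the horizontal axis, with 1 panel per compound. Filled points passed the test, open points did not and black lines are medians; the 16 filled rosiglitazone points all lie above 0, and 11 of them belong to complex I.

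Across the 6 groups, 10 of the 81 genes differed by the limma F test (12.3%), against 18.5% of all genes. These were Ndufa8, Ndufb7, Ndufb3, Ndufb5 and Ndufaf4 of complex I, Sdhc of complex II, Uqcrc2 of complex III, and Cox6a2, Cox8b and Cox7a1 of complex IV. The complex V gene with the smallest F test p was Atp5h, and 0 of 16 complex V genes passed (3 at an unadjusted p under 0.05). Leaving out rosiglitazone replicate 1 brought the count to 18.

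Rosiglitazone had the highest count of called members among the 5 compounds. With it, 16 of the 81 genes rose and 0 fell, and 11 of the 16 belonged to complex I. In this comparison 8.06% of all genes rose and 10.0% fell, and the 16 genes are 19.8% of the members. At an unadjusted p under 0.05, 1 gene was lower, Sdha, whose probe lay near background. The median log2 change of the 81 genes was 0.16, against -0.0025 over all genes. Of the 81 changes, 59 were positive (72.8%, against 49.6% of all genes). Positive changes were as common or more so with diclofenac (80.2%, against 52.1%) and indomethacin (74.1%, against 50.5%). With GQ16 they made up 71.6%, against 51.8%, and with ibuprofen 60.5%, against 49.4%. Each compound was set against the same 3 DMSO arrays.

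In complex I, 11 of 41 genes rose, and they encode subunits of several parts of the enzyme and assembly factors. Ndufb10, Ndufb7 and Ndufa8 encode subunits on the intermembrane-space side, and Ndufb3, Ndufb6 and Ndufa10 encode membrane-arm subunits. Ndufv1 binds the flavin that takes electrons from NADH, and Ndufs7 holds the last iron-sulphur cluster before ubiquinone. The other core subunits tested, Ndufs3, Ndufs8 and Ndufv2, did not pass (log2 changes -0.08, 0.21 and 0.20). Ndufaf4, Ndufaf5 and Ndufaf8 are assembly factors, and Ndufaf5 and Ndufaf8 act as partners. The highest log2 change was that of Ndufb10 (0.85, SE 0.22, limma adjusted p = 0.0092) and the lowest in the complex that of Ndufb4 (-0.23, adjusted p = 0.54).

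Ndufb7 had levels of 10.50, 10.17 and 10.60 in rosiglitazone cells, against 9.92, 9.74 and 9.34 in DMSO cells. Each rosiglitazone array was above each DMSO array, and the log2 change was 0.76 (SE 0.16, limma adjusted p = 0.0017). Ndufa8 had levels of 13.71, 13.64 and 13.72 in rosiglitazone cells, against 13.24, 13.12 and 13.28 in DMSO cells. Its groups did not overlap and differed by 0.48 (SE 0.11, limma adjusted p = 0.0029). Ndufb3 had levels of 13.11, 12.83 and 13.13 in rosiglitazone cells, against 12.56, 12.46 and 12.30 in DMSO cells. It rose by 0.58 (SE 0.13, limma adjusted p = 0.0024), again with no overlap.

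Ndufaf4, an early assembly factor, had levels of 12.68, 12.14 and 12.35 in rosiglitazone cells, against 11.63, 11.85 and 11.30 in DMSO cells. The groups did not overlap, with SDs of 0.270 (rosiglitazone) and 0.275 (DMSO), and the log2 change was 0.80 (SE 0.18, limma adjusted p = 0.0027). Ndufaf5, which hydroxylates Ndufs7, rose by 0.57 (SE 0.17) and Ndufaf8 by 0.50 (SE 0.17). The other called complex I genes had log2 changes from 0.34 (Ndufa10) to 0.39 (Ndufb6), with Ndufv1 and Ndufs7 at 0.35. Of the 7 assembly factors of complex I that were tested, 3 rose.

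**Figure D2:**
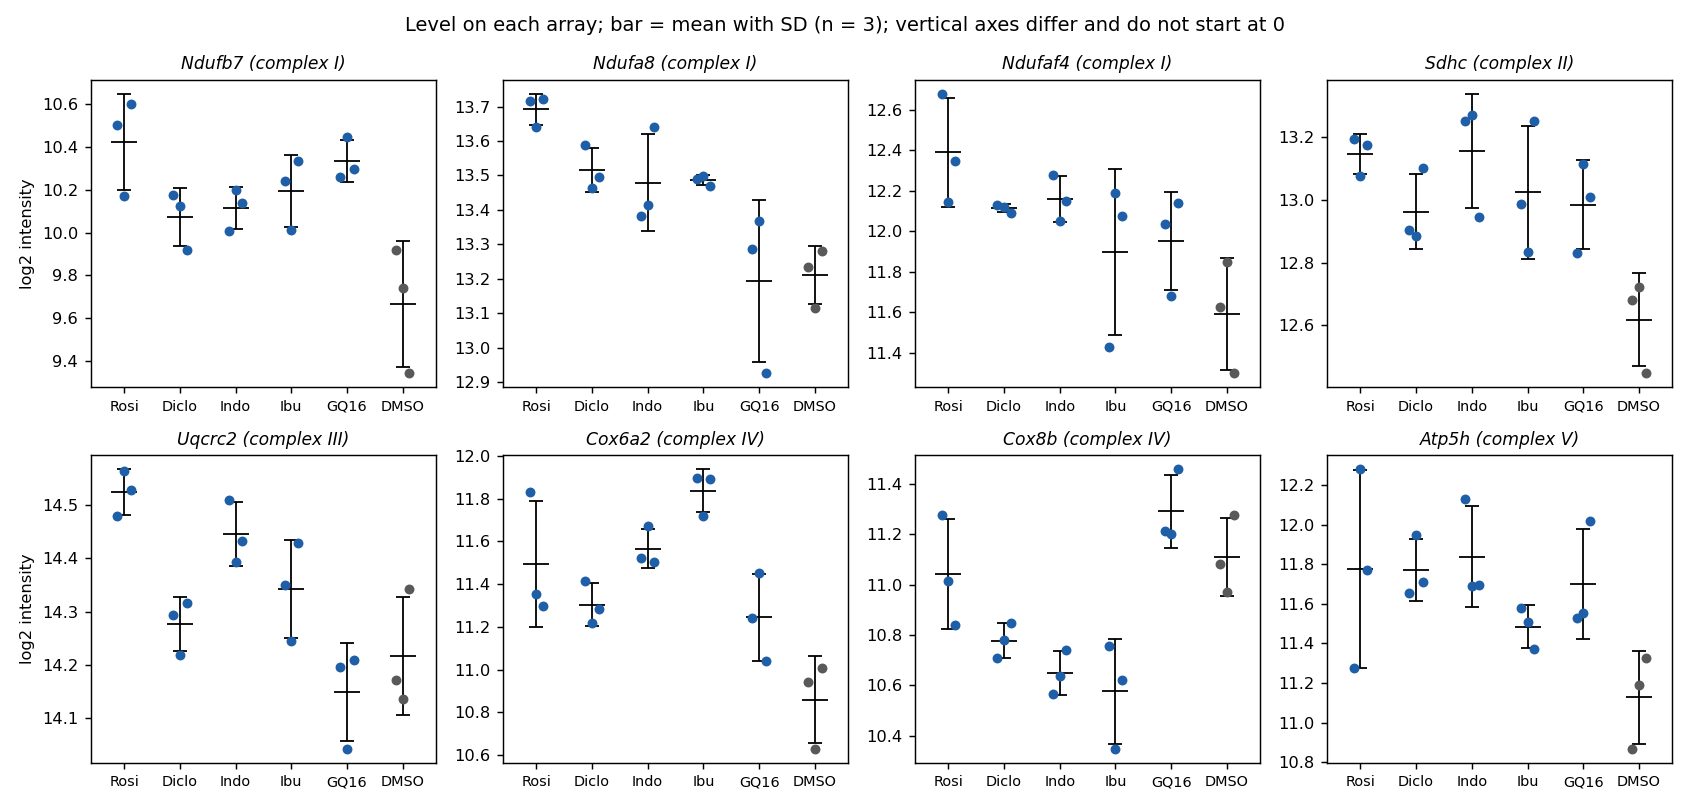
Level of 8 genes on each of the 18 arrays (vertical axis, log2 intensity, not starting at 0 and differing between panels) by group on the horizontal axis, with DMSO at the right. Points are arrays and bars are the mean and SD of 3 arrays; Cox6a2 is lowest in DMSO cells and highest in ibuprofen cells, and Cox8b is lowest in ibuprofen and indomethacin cells.

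In the other complexes, 5 genes rose with rosiglitazone: Sdhc, Uqcrc2, Atp5c1, Atp5h and Cox6a2, the last described with the complex IV isoforms. Sdhc, a membrane anchor of complex II, had levels of 13.19, 13.07 and 13.17 in rosiglitazone cells, against 12.68, 12.72 and 12.45 in DMSO cells (log2 change 0.53, SE 0.12, limma adjusted p = 0.0040). Uqcrc2, core protein 2 of complex III, had levels of 14.48, 14.56 and 14.53 in rosiglitazone cells, against 14.17, 14.14 and 14.34 in DMSO cells (0.31, SE 0.08, limma adjusted p = 0.014). Neither gene's groups overlapped. Uqcrc1, core protein 1, had the highest log2 change in complex III (0.32) and did not pass (adjusted p = 0.052). Atp5c1, the gamma subunit that forms the rotating shaft of the ATP synthase, rose by 0.33 (SE 0.10). Atp5h, subunit d of the peripheral stalk, had levels of 11.28, 12.28 and 11.77 in rosiglitazone cells, against 10.87, 11.19 and 11.32 in DMSO cells, and rose by 0.65 (SE 0.19, limma adjusted p = 0.022) with overlapping groups. Complex medians of the log2 change were 0.21, 0.20, 0.13, 0.14 and 0.08 for complexes I to V. That of complex II, over 4 genes, was -0.17 on rosiglitazone replicate 1, 0.31 on replicate 2 and 0.38 on replicate 3, each set against the DMSO mean, and without rosiglitazone replicate 2 it came to 0.00092. Complex III had a median of 0.06 without DMSO replicate 3. Those of complexes IV and V were 0.02 and -0.02 without that array.

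The arrays of a slide follow one another in the order of the samples, so slide cannot be told apart from position in that order. Slide 1 held 2 rosiglitazone and 2 DMSO arrays, and there each of the 16 genes kept its direction, with differences from 0.19 (Ndufs7) to 1.00 (Atp5h). Those of Ndufs7, Ndufb10 (0.49), Ndufaf4 (0.51) and Ndufaf8 (0.29) were smaller there than over all arrays by more than 1.5 times, and that of Atp5h was larger. With slide as a block, Ndufaf8 no longer passed (limma adjusted p = 0.11). Ndufa8, Ndufb3 and Ndufb7 passed under each of the 31 alternative settings. Of the others, Ndufaf4, Sdhc and Cox6a2 passed in all 18 fits that left out 1 array. Ndufb10 was lost without DMSO replicate 3, Ndufb6 without DMSO replicate 2, Uqcrc2 without DMSO replicate 1 or 2, and Atp5c1 without rosiglitazone replicate 3 or DMSO replicate 2. Ndufa10 and Ndufaf5 were lost without rosiglitazone replicate 1 or DMSO replicate 1 or 2, Ndufs7 without any of those or DMSO replicate 3, and Atp5h without rosiglitazone replicate 2 or 3 or DMSO replicate 1. Ndufv1 passed in 8 of the 18 fits, lost without rosiglitazone replicate 2, DMSO replicate 1 or 2, ibuprofen replicate 2 or any diclofenac or indomethacin array. Ndufaf8 passed in 3 of the 18, those without rosiglitazone replicate 2, GQ16 replicate 1 or GQ16 replicate 2. Without DMSO replicate 1 or without DMSO replicate 2 the count of called members was 9. With rosiglitazone replicate 1 and DMSO replicate 3 both left out, Ndufs7, Ndufb10, Ndufaf4, Ndufaf5, Ndufaf8 and Atp5c1 were lost (limma adjusted p from 0.059 for Ndufaf4 to 0.31 for Ndufaf8). The rosiglitazone and DMSO arrays left in that fit are those of slide 1, so its log2 changes are the slide 1 differences and not a separate check.

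These are bulk samples, so fewer cells of a type and less RNA per cell cannot be told apart. Of the 9 preadipocyte and fibroblast markers measured, 7 fell with rosiglitazone, 5 with indomethacin and 6 with ibuprofen. The shares of all genes that fell were 10.0%, 6.65% and 5.20% in that order. The mean level of the 9 was 8.59 to 8.75 over the rosiglitazone arrays, 8.86 to 9.01 over the diclofenac arrays, 8.69 to 8.70 over the indomethacin arrays, 8.70 to 8.76 over the ibuprofen arrays, 8.94 to 9.23 over the GQ16 arrays and 9.08 to 9.42 over the DMSO arrays. Adipocyte markers had a mean level between 10.76 and 11.05 on every array, with single markers called in both directions. Of the 10, 1 rose and 1 fell with rosiglitazone, 0 rose and 2 fell with indomethacin, and 2 rose and 1 fell with ibuprofen. With diclofenac and with GQ16, 0 were called. The shares of all genes were 8.06% rising and 10.0% falling with rosiglitazone, 3.58% and 6.65% with indomethacin, and 4.26% and 5.20% with ibuprofen. Thermogenic markers, a list that holds Ppargc1a and the members Cox7a1 and Cox8b too, had a mean level of 11.24 to 11.43 over the rosiglitazone arrays, 10.72 to 10.88 over the diclofenac arrays, 11.00 to 11.09 over the indomethacin arrays, 11.05 to 11.21 over the ibuprofen arrays, 10.81 to 10.92 over the GQ16 arrays and 10.41 to 10.68 over the DMSO arrays, with Ucp1 and Dio2 under background. Of the 5 thermogenic markers above background, 2 rose with rosiglitazone, 1 with diclofenac, 2 with indomethacin, 2 with ibuprofen and 1 with GQ16. The shares of all genes that rose were 8.06%, 0.621%, 3.58%, 4.26% and 0.684% in that order. Cox8b fell with indomethacin and ibuprofen. The median log2 changes of the 5 were 0.44, 0.08, 0.43, 0.27 and 0.18 in that order of compounds. Kdr, the endothelial marker above background and a receptor for vascular endothelial growth factor, averaged 6.75 in rosiglitazone cells and 6.42 in DMSO cells and rose (log2 change 0.33, SE 0.11, limma adjusted p = 0.035). That call was lost with slide as a block (adjusted p = 0.058) and without rosiglitazone replicate 1 or 3 or DMSO replicate 1 or 2. Csf1r, the macrophage marker above background, had a mean level per array of 6.38 to 6.55 in rosiglitazone cells and of 6.16 to 6.28 in DMSO cells and did not pass (adjusted p = 0.054). The part of these markers in the changes of the respiratory genes was not tested.

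**Figure D3:**
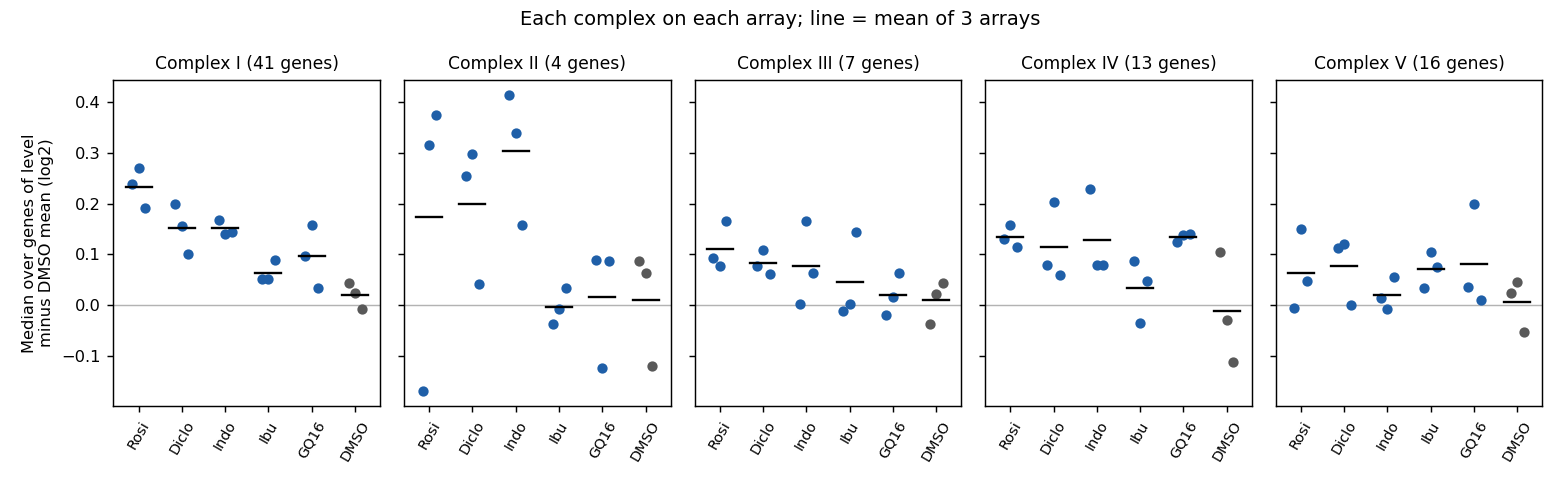
Median over the genes of each complex of the level minus the gene's DMSO mean (vertical axis, log2), for each array, by group on the horizontal axis and with 1 panel per complex. Points are arrays and lines are means of 3 arrays. DMSO arrays lie near 0 because their own mean was subtracted. In complex I they lie between -0.01 and 0.04, and rosiglitazone arrays between 0.19 and 0.27. The other arrays lie between 0.10 and 0.20 (diclofenac), 0.14 and 0.17 (indomethacin), 0.05 and 0.09 (ibuprofen) and 0.03 and 0.16 (GQ16).

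With indomethacin 6 genes rose and 1 fell, against 3.58% of all genes rising and 6.65% falling. The 6 were Atp5h (0.71, SE 0.19), Cox6a2 (0.71, SE 0.15), Sdhd (0.68, SE 0.21), Ndufaf4 (0.57, SE 0.18), Sdhc (0.54, SE 0.12) and Ndufb6 (0.32, SE 0.10), and Cox8b fell by 0.46 (SE 0.14). Sdhc and Sdhd are the membrane anchors of complex II. Sdhd had levels of 9.27, 9.14 and 8.94 in indomethacin cells, against 8.54, 8.23 and 8.53 in DMSO cells, with no overlap. Ndufb5 had the highest log2 change of complex I (0.67) and did not pass (limma adjusted p = 0.051), but passed in 12 of 31 alternatives, among them slide as a block (0.95, adjusted p = 0.0038), the replicate block (adjusted p = 0.044) and the fits without rosiglitazone replicate 1 or 2 or GQ16 replicate 1 or 3. The median log2 change of the 81 genes was 0.10, and complex V had a median of -0.0027.

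On slide 1, which held 1 indomethacin and 2 DMSO arrays, the 7 genes kept their direction, and differences under that of all arrays by more than 1.5 times were those of Sdhc (0.24) and Cox8b (-0.29). The difference of Ndufb6 there was 0.48. Cox6a2 passed under all 31 alternatives and Sdhc in all 18 fits without 1 array. Atp5h was lost without indomethacin replicate 1 or DMSO replicate 1, and Sdhd without any indomethacin array or DMSO replicate 1 or 2. Ndufaf4 was lost without any indomethacin array, diclofenac replicate 1 or 2 or DMSO replicate 1 or 3, and with slide as a block (limma adjusted p = 0.10). Cox8b passed in 9 of the 18 fits, lost without any diclofenac, indomethacin or DMSO array. Ndufb6 passed in 7 of the 18, lost without rosiglitazone replicate 3, ibuprofen replicate 3, GQ16 replicate 2, DMSO replicate 1 or 2 or any diclofenac or indomethacin array. The count of called members was 2 without indomethacin replicate 1 or DMSO replicate 1, 3 without indomethacin replicate 2 or 3, and 4 without DMSO replicate 2 or diclofenac replicate 1 or 2.

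With ibuprofen 3 genes rose, Cox6a2 (0.98), Ndufb7 (0.53) and Sdhc (0.41), and Cox8b fell. In this comparison 4.26% of all genes rose and 5.20% fell. Ndufb7 had levels of 10.24, 10.01 and 10.33 in ibuprofen cells, each above the DMSO arrays named earlier (SE 0.16, limma adjusted p = 0.037). Sdhb, the iron-sulphur subunit of complex II, had a log2 change of -0.41 and did not pass (adjusted p = 0.28). It passed without DMSO replicate 3 (-0.67, adjusted p = 0.046), without that array and rosiglitazone replicate 1 (-0.67, adjusted p = 0.0037) and with array weights (-0.52, adjusted p = 0.0059), and against DMSO replicate 3 on slide 2 the difference was 0.12. Ndufb2, a membrane-arm subunit, had the lowest change of complex I (-0.42, adjusted p = 0.22). The median log2 change of the 81 genes was 0.05.

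Slide 2 held the 3 ibuprofen arrays and, of the DMSO arrays, replicate 3, and within it the differences were 0.83 for Cox6a2, 0.85 for Ndufb7, 0.58 for Sdhc and -0.70 for Cox8b. With slide as a block, Ndufb7 (limma adjusted p = 0.053) and Cox8b (adjusted p = 0.056) no longer passed, while Cox6a2 changed by 0.81 (adjusted p = 0.0039). Sdhc was lost without ibuprofen replicate 1 or 3 or any DMSO array, Ndufb7 without those ibuprofen arrays, indomethacin replicate 3 or DMSO replicate 2 or 3, and Cox8b without ibuprofen replicate 2 or DMSO replicate 1 or 3. The count of called members was 2 without ibuprofen replicate 3, DMSO replicate 1 or DMSO replicate 2.

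With diclofenac 0 of the 81 genes changed by the limma test, while 13 were higher and 1 lower by an unadjusted p under 0.05. Of all genes 0.621% rose and 1.48% fell. The median log2 change of the 81 genes was 0.11, and 65 of the 81 were positive (80.2%, against 52.1% of all genes). The highest changes were those of Atp5h (0.64, adjusted p = 0.087) and Ndufb10 (0.63, adjusted p = 0.16), and the lowest that of Cox8b (-0.33, adjusted p = 0.29). Leaving out rosiglitazone replicate 1 brought the count to 2 and leaving out rosiglitazone replicate 2 brought it to 1, through the shared estimate of the spread.

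With GQ16 Ndufb7 rose and 0 of the 81 genes fell by the limma test, while 14 were higher and 2 lower by an unadjusted p under 0.05. Of all genes 0.684% rose and 0.748% fell. Ndufb7 had levels of 10.26, 10.45 and 10.30 in GQ16 cells and differed from DMSO cells by 0.67 (SE 0.16, limma adjusted p = 0.036). On slide 2, with 1 GQ16 and 1 DMSO array, the difference was 0.92. The call was lost with slide as a block (adjusted p = 0.073) and in 9 of 18 fits without 1 array, those without GQ16 replicate 2 or 3, diclofenac replicate 2, any indomethacin array or any DMSO array. The median log2 change of the 81 genes was 0.06. Without rosiglitazone replicate 1 the count was 2.

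Several isoforms of complex IV were measured side by side. Cox8a, the common form of subunit 8, was not among the genes found by the symbol rule, so Cox8b had no common form beside it. Cox6a2, the heart and muscle form of subunit 6a, had levels of 11.83, 11.35 and 11.30 in rosiglitazone cells, 11.41, 11.22 and 11.28 in diclofenac cells, 11.52, 11.67 and 11.51 in indomethacin cells, 11.90, 11.72 and 11.89 in ibuprofen cells, 11.24, 11.45 and 11.04 in GQ16 cells, and 10.94, 10.63 and 11.01 in DMSO cells. All compound arrays were above all DMSO arrays. The gene rose by 0.98 with ibuprofen (SE 0.15, limma adjusted p = 0.00013), by 0.71 with indomethacin (adjusted p = 0.0028) and by 0.63 with rosiglitazone (adjusted p = 0.0043). With diclofenac the log2 change was 0.44 (adjusted p = 0.14) and with GQ16 0.38 (adjusted p = 0.19). Cox6a1, the common form, had log2 changes from -0.08 (GQ16) to 0.11 (diclofenac) and did not pass with any compound. Its group means lay between 14.57 (GQ16) and 14.76 (diclofenac), near the highest value on any array, 14.77. Of 5 muscle markers on the array, Myod1 and Ckm did not pass the background filter. Of the 3 that did, 1 rose with rosiglitazone, indomethacin and ibuprofen, in each case Acta1, and 0 with diclofenac and GQ16. The shares of all genes that rose were 8.06% with rosiglitazone, 3.58% with indomethacin and 4.26% with ibuprofen. Myog and Des were not called with any compound. The mean level of the 3 was 6.95 to 7.25 over the rosiglitazone arrays and 6.96 to 7.08 over the DMSO arrays. The DMSO mean of Acta1 lay under background. Its calls with rosiglitazone, indomethacin and ibuprofen were lost in 3, 0 and 2 of 18 fits without 1 array. These were the fits without rosiglitazone replicate 3 or DMSO replicate 1 or 2 for rosiglitazone. For ibuprofen they were those without ibuprofen replicate 2 or DMSO replicate 1. With slide as a block Acta1 no longer passed with ibuprofen (limma adjusted p = 0.084), and on slide 2 the ibuprofen difference was 0.26, against 0.41 over all arrays. The part of muscle-type expression in the Cox6a2 values was not tested.

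Cox8b, the heart, muscle and brown fat form of subunit 8, had levels of 10.57, 10.63 and 10.74 in indomethacin cells, 10.76, 10.35 and 10.62 in ibuprofen cells, 10.71, 10.78 and 10.85 in diclofenac cells, and 11.08, 10.97 and 11.28 in DMSO cells. The arrays of all 3 drugs lay below those of DMSO, and the log2 change was -0.46 with indomethacin (SE 0.14, limma adjusted p = 0.040) and -0.53 with ibuprofen (SE 0.14, adjusted p = 0.020). With diclofenac it was -0.33 and did not pass (adjusted p = 0.29). With rosiglitazone the log2 change was -0.07 (95% confidence interval -0.36 to 0.23). With GQ16 it was 0.18 (interval -0.12 to 0.48). Against rosiglitazone cells Cox8b differed by -0.47 in ibuprofen cells (interval -0.76 to -0.17, adjusted p = 0.10) and by -0.40 in indomethacin cells (interval -0.69 to -0.10, adjusted p = 0.53), so neither difference passed.

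Cox7a1, the heart, muscle and brown fat form of subunit 7a, had levels of 12.51, 12.61 and 12.25 in GQ16 cells, 12.12, 12.04 and 12.08 in rosiglitazone cells, and 12.20, 12.02 and 12.13 in DMSO cells. It passed the F test (limma adjusted p = 0.024) and its log2 change from DMSO was 0.34 with GQ16 (adjusted p = 0.17) and -0.27 with indomethacin (adjusted p = 0.21). Cox7a2, the common form, ranged from -0.27 (ibuprofen) to 0.44 (indomethacin) and did not pass. Cox4i1, Cox5a, Cox5b, Cox6b1 and Ndufa4 had log2 changes between -0.02 and 0.21 in all 5 comparisons with DMSO, and none passed. Cox6c ranged from -0.29 (ibuprofen) to 0.29 (GQ16) and Cox7b from -0.01 (indomethacin) to 0.27 (rosiglitazone), and neither passed. The tissue-restricted forms Cox4i2, Cox6b2, Cox7b2 and Cox8c were not above background on any array, and neither were the complex I genes Ndufaf6 and Ndufs1. Ndufs1 is not a tissue-restricted form. It had 1 probe (mean 5.84), as had Ndufaf6 (5.71). The core subunit genes Sdha and Uqcrfs1 were above background on only 4 and 9 arrays. Whether such dim probes detect their transcripts was not tested. Of the genes for the rotating ring of the ATP synthase, Atp5g3 changed by -0.06 to 0.09 and Atp5g2 by -0.03 to 0.43, 0.43 being the value with GQ16 (limma adjusted p = 0.14). Atp5g1, a further gene of that family, was not among the genes found by the symbol rule.

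GQ16 differed from rosiglitazone in 5 of the 81 genes, and 14.8% of all genes differed in either direction. Lower in GQ16 cells were Ndufa8 (log2 difference -0.50, SE 0.11, limma adjusted p = 0.0032), Uqcrc2 (-0.37, SE 0.08, adjusted p = 0.0048), Cox7a2l (-0.57, SE 0.14, adjusted p = 0.0098) and Ndufaf5 (-0.56, SE 0.17, adjusted p = 0.030). Cox7a2l, which joins complexes III and IV in supercomplexes, had levels of 11.68, 11.65 and 11.28 in GQ16 cells, against 11.89, 12.23 and 12.21 in rosiglitazone cells, with no overlap. Cox7a1 was higher in GQ16 cells by 0.38 (SE 0.13, adjusted p = 0.049). Ndufb7, which rose with both compounds, differed between them by -0.09 (95% confidence interval -0.42 to 0.24).

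On slide 3, with 2 GQ16 arrays and 1 rosiglitazone array, the differences were -0.57 for Ndufa8, -0.35 for Uqcrc2, -0.42 for Cox7a2l, -1.04 for Ndufaf5 and 0.31 for Cox7a1. Ndufa8 and Uqcrc2 passed in all 18 fits without 1 array. Cox7a2l was lost without GQ16 replicate 3, and Ndufaf5 without rosiglitazone replicate 1 or GQ16 replicate 2 or 3. Cox7a1 passed in 4 of the 18, those without ibuprofen replicate 1, ibuprofen replicate 2, GQ16 replicate 3 or DMSO replicate 3, and was lost with slide as a block (limma adjusted p = 0.14). Without rosiglitazone replicate 1 the count was 10, and without GQ16 replicate 2 it was 3. Diclofenac differed from rosiglitazone in 0 of the 81 genes by the limma test (0 higher and 6 lower by an unadjusted p under 0.05, against 1.94% of all genes called). Indomethacin differed in 0 (0 higher and 4 lower unadjusted, against 0.0365% called) and ibuprofen in 0 (2 higher and 15 lower unadjusted, against 1.34% called). Without rosiglitazone replicate 2 the diclofenac count was 1; without rosiglitazone replicate 1, rosiglitazone replicate 2 or GQ16 replicate 1 the ibuprofen count was 2, 1 or 1.

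**Figure D4:**
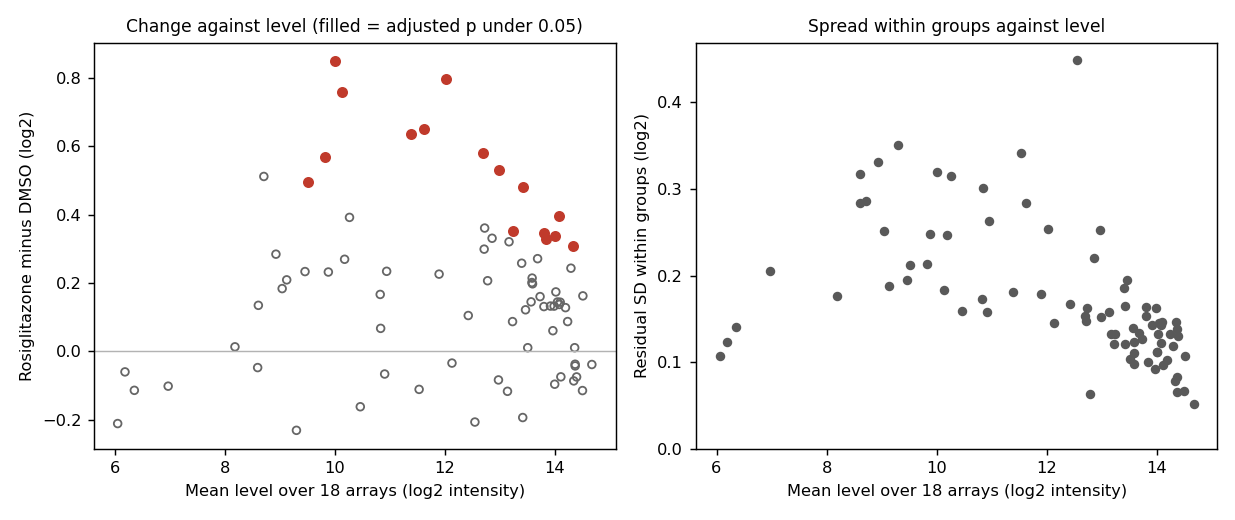
Left, the rosiglitazone mean minus the DMSO mean (vertical axis, log2) and right, the residual SD within groups (vertical axis, log2), both against the mean level over 18 arrays (horizontal axis, log2 intensity), 1 point per gene. Filled points on the left passed the test; of the 41 genes over 13, 7 rose, and their median spread within groups (0.127) is below that of dimmer genes.

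Where a gene had several probes, the dimmer ones did not always follow the brightest. Of the 81 genes, 28 had more than 1 probe above background, and all probes of a gene had the same sign with rosiglitazone in 17 of the 28. Among genes counted as not passing, 6 had another probe that rose with rosiglitazone in the fit of all probes: Atp5o, Atp5pb, Ndufs6, Atp5k, Ndufa3 and Ndufab1. The brightest Atp5o probe, at a mean level of 14.1, had a log2 change of 0.14 (limma adjusted p = 0.40), and the next probe, at 11.3, had 0.92 (adjusted p = 3.0e-05). For Sdhc the order was reversed: the brightest probe, at 12.98, had 0.53 and the dimmer one, at 7.25, had -0.0039. With every probe tested by itself, 24 of 119 member probes (20.2%) rose with rosiglitazone, against 8.16% of all 17674 probes, 9 (7.56%) with indomethacin, against 3.54%, and 6 (5.04%) with ibuprofen, against 5.70%. With any probe counted, 21, 8 and 6 of the 81 genes rose with these 3 compounds, and genes with several probes had more than 1 chance to pass. The cause of these differences was not tested.

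Genes that work beside the complexes were read from lists. Of 15 genes for electron carriers and coenzyme Q, 4 rose with rosiglitazone: Etfdh (0.66) and Etfb (0.34), which pass electrons from fatty acid oxidation to ubiquinone, and Coq6 (0.49) and Coq10b (0.50), which act in coenzyme Q synthesis and handling. With indomethacin, Coq6 (0.47) and cytochrome c, Cycs (0.35), rose and Coq10a fell by 0.51. Of all genes 8.06% rose with rosiglitazone, and with indomethacin 3.58% rose and 6.65% fell. Etfdh and both Coq6 calls held in all 18 fits without 1 array, and Etfb was lost without DMSO replicate 2 alone. Coq10b was lost without rosiglitazone replicate 1 or 3, DMSO replicate 1 or 2 or any indomethacin array, and Cycs without indomethacin replicate 1 or 2, DMSO replicate 2 or 3, or with slide as a block (limma adjusted p = 0.14). Coq10a passed in 7 of the 18, those without rosiglitazone replicate 1 or 2, ibuprofen replicate 1 or 2 or any GQ16 array, and was lost with slide as a block (adjusted p = 0.052).

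Of 35 assembly factors outside the symbol rule, 2 rose with rosiglitazone, against 8.06% of all genes, and 2 with indomethacin, against 3.58%. With ibuprofen 2 rose, against 4.26%, and 1 fell, against 5.20%. With GQ16 1 fell, against 0.748%. Bcs1l, which inserts the Rieske protein into complex III, rose with rosiglitazone (0.89) and indomethacin (0.59). Coa3, a complex IV factor, rose with rosiglitazone (0.47), indomethacin (0.41) and ibuprofen (0.45). Both rosiglitazone calls held in all 18 fits without 1 array. With slide as a block, the indomethacin calls of Bcs1l (limma adjusted p = 0.11) and Coa3 (adjusted p = 0.067) and the ibuprofen call of Coa3 (adjusted p = 0.089) were lost. They were also lost without indomethacin replicate 1 or 2 (both genes), indomethacin replicate 3 or DMSO replicate 3 (Bcs1l), DMSO replicate 1 (both genes) or DMSO replicate 2 (Coa3), and for ibuprofen without ibuprofen replicate 1 or DMSO replicate 1 or 2. Taco1 rose with ibuprofen (0.46) in 10 of the 18 fits, those without any rosiglitazone or GQ16 array, diclofenac replicate 1 or 2, ibuprofen replicate 1 or DMSO replicate 3. Pet100 fell by 0.54 with ibuprofen and was lost without indomethacin replicate 3, ibuprofen replicate 2 or 3 or DMSO replicate 1 or 2. Slide as a block ended both calls (adjusted p = 0.29 for Taco1 and 0.28 for Pet100). Cox16 fell by 0.51 with GQ16 in 7 of the 18 fits, those without any rosiglitazone array, indomethacin replicate 3, ibuprofen replicate 1 or 2 or GQ16 replicate 1.

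Of 18 regulators of mitochondrial biogenesis, 2 rose with rosiglitazone, against 8.06% of all genes, 1 with indomethacin, against 3.58%, and 1 with ibuprofen, against 4.26%. The coactivator Ppargc1a rose with rosiglitazone (0.94, SE 0.17), indomethacin (0.85) and ibuprofen (1.05), in all 18 fits without 1 array. The receptor Esrra rose with rosiglitazone (0.51) and was lost without rosiglitazone replicate 1 or DMSO replicate 3. Of 7 genes for ATP synthase regulation and ADP/ATP exchange, Vdac2, a channel of the outer membrane, rose with indomethacin (0.76), again in all 18. Of the 2 uncoupling proteins above background, Slc25a14 fell by 0.46 with rosiglitazone (10.0% of all genes fell) and by 0.56 with ibuprofen (5.20%). Both calls were lost without DMSO replicate 1 or 2, the rosiglitazone call also without rosiglitazone replicate 1 or 3, and the ibuprofen call without ibuprofen replicate 1 or 2 or with slide as a block (limma adjusted p = 0.14). Ucp3 rose with ibuprofen (0.37) in 7 of the 18, those without rosiglitazone replicate 1 or 2, ibuprofen replicate 1, DMSO replicate 3 or any GQ16 array, and was lost with slide as a block (adjusted p = 0.53).

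The array measured 8 of the 13 subunits encoded in mitochondrial DNA. Of these, 0 passed with any compound by the limma test. By an unadjusted p under 0.05, 0 were higher or lower with rosiglitazone, 2 were higher with diclofenac, 2 lower with indomethacin, 1 higher and 1 lower with ibuprofen and 1 higher with GQ16.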

How the data were processed

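Total RNA of 18 samples was hybridised to Illumina mouse BeadChips, and per the submitters' processing notes the tools were GenomeStudio and lumi, for which no version is stated. The values are the deposited intensities on a log2 scale, 1 per probe and array; base 2 was inferred from their range. All 18 columns held the same sorted values within 0.002, so the authors had quantile-normalized them, which hides a shift common to most genes. The non-normalized table was left out, because its 36 value columns carry names that match no sample. The planned detection filter and background correction on those signals were therefore not run. The background level that replaced them was chosen after the files had been seen.

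Background was set at 6.18, the 95th percentile of 1526 receptor probes (olfactory, vomeronasal, trace amine). Probes above it on at least 3 arrays were kept, and each gene was represented by its brightest such probe (10958 genes). Genes were named by the platform annotation; 34807 of 34885 probes with 1 symbol matched the RefSeq table (assembly GRCm38.p6) by Entrez identifier. No build of the annotation is stated, and the only coordinates printed are those of the RefSeq promoter windows. limma 3.58.1 in R 4.3.3 fitted 1 mean per group over all arrays (12 residual degrees of freedom; the variance prior followed intensity), with two-sided tests and Benjamini-Hochberg adjustment over all genes; the fit was tested on simulated data. Figures and motif searches used Python 3.11.15. The number of arrays limits the precision.

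The members, the gene lists and the tests were chosen with earlier results of these data known. Genes were named in the text by rule: called members, the highest and lowest change and smallest F test p in each complex, isoform families, the succinate dehydrogenase subunits, and called genes of the lists. Deviations from group means correlated with a median of -0.014 between arrays of the same replicate number and of 0.0068 between other arrays. That check cannot show whether the numbers pair the samples, and the main fit did not use them. Alternatives changed the background filter, probe choice, slide or replicate block, centring, variance trend, array weights and the arrays included. Gene-by-gene array weights were added after the data had been seen, when limma's default estimate stopped before converging.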

Additional observations from a re-analysis of the deposited data

How the results depend on the processing

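The counts below are called members, with the count reported above first. Among the 6 groups (10), the count was 5 with no background filter, 17 with every probe tested by itself and 18 without rosiglitazone replicate 1 and DMSO replicate 3, the arrays named for this in earlier work; here rosiglitazone replicates 1 and 2 lay farthest from their group over all genes. For rosiglitazone (16) it was 6 with only the arrays of the 2 groups. For diclofenac (0) it was 2 with the mean of a gene's probes, 2 without those arrays and 1 with only the 2 groups. For indomethacin (7) it was 2 with no filter and 4 on slide 1 alone. For ibuprofen (4) it was 2 with no filter, 2 with slide as a block, 7 by probe, 10 without those arrays, 1 on slide 2 alone and 2 with only the 2 groups. For GQ16 (1) it was 0 with no filter, with slide as a block, on slide 2 alone and with only the 2 groups, 2 with the probe mean and 6 without those arrays. Against rosiglitazone, indomethacin (0) gave 2 on slide 3 alone, ibuprofen (0) gave 1 with the probe mean and 5 without those arrays, and GQ16 (5) gave 3 with no filter, 8 with slide as a block, 13 without those arrays, 3 on slide 3 alone and 0 with only the 2 groups.

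With array weights, limma's default estimate, the planned setting, stopped before converging and gave 40 among the 6 groups, 40 for rosiglitazone (33 higher, 7 lower), 8 for diclofenac, 22 for indomethacin, 24 for ibuprofen and 5 for GQ16, and against rosiglitazone 11 for diclofenac, 17 for indomethacin, 9 for ibuprofen and 11 for GQ16. The gene-by-gene estimate, added once that had been seen, gave 30, 27 (26 higher, 1 lower), 7, 22, 20 and 3, and against rosiglitazone 2, 0, 4 and 7. In both, rosiglitazone replicate 1 had the lowest weight (0.174 and 0.195), and the cause of the higher counts was not tested.

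Leaving out 1 array gave 8 to 18 among the 6 groups, 9 to 17 for rosiglitazone, 0 to 2 for diclofenac, 2 to 9 for indomethacin, 2 to 6 for ibuprofen and 0 to 2 for GQ16. Against rosiglitazone it gave 0 to 1 for diclofenac, 0 for indomethacin, 0 to 2 for ibuprofen and 3 to 10 for GQ16. Same-numbered arrays of different groups had deviations that correlated from -0.33 to 0.53 (median -0.01), and the fit with a replicate block gave 10, 16, 0, 7, 4 and 1, and against rosiglitazone 0, 0, 0 and 4. Of the 33 single-gene calls, 5 held under all 31 alternatives and 11 in all 18 fits without 1 array, and none of the 33 reversed sign in any of them. The medians of the 81 genes and of each complex, 6 in each of the 5 comparisons with DMSO, had 936 values under the alternatives. Of these 107 moved by more than the spread between replicates, and 9 of the 30 medians changed sign under at least 1 alternative; that of complex IV with rosiglitazone was -0.04 with array weights. The planned background correction (neqc) and detection filter could not be run. Of the 81 members, 41 had a mean over 13, near the highest value of 14.77, and what that limits was not tested.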
